A study of Mus musculus with 7 samples.

Results

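Mitosis and spindle checkpoint genes were examined in mouse Group 3 (G3) medulloblastoma (MB), as 55 genes listed by name for their part in cell division (kinases, checkpoint, kinetochore, kinesins, condensin). All 55 were present among the 34592 genes of the count table, and 55 of 55 passed the filter on low counts that left 17389 genes for the test. RNA-seq counts were available for 7 tumors, of which 4 came from cells infected with a lentivirus for human WDR11 (WDR11OE) and 3 were controls. All 7 tumors came from 1 tumorsphere line, #19568, so they do not stand for separate tumor lines. The line was derived from tumors of CD1nu/nu mice that had received Trp53-/-; Cdkn2c-/- granule neuron progenitors of the cerebellum carrying a Myc retrovirus, and the control and WDR11OE tumors share all of these alterations. The labels name the marker of this retrovirus as GFP, whereas the study names RFP in 1 place. The WDR11OE vector, a pCDH lentivirus, drives WDR11 and the fluorescent protein copGFP from the EF1 promoter. The protocol names the empty vector as its control, whereas the treatment label of the control tumors reads "none". Infected spheres grew in the cortices of CD1-nu/nu mice, which lack T cells, and tumor chunks were frozen once the mice were moribund. Per the study, the implanted cells were not sorted and infection was incomplete, so WDR11OE tumors may also hold cells without the transgene. The progenitors came from pups 7 days old and the model's first hosts were 6 to 8 weeks old, per the study's methods, whereas the age of the mice that received the infected spheres was not given in the sources used here. The chunks also hold host brain, whose transcripts are counted together with those of the tumor because both are of mouse. The labels do not state which tumors came from separate animals, and the p-values therefore measure the spread between these 7 samples.

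Mitosis begins when cyclin B bound to CDK1 is freed from the inhibitory phosphates that WEE1 adds and CDC25 phosphatases remove, while Polo-like and Aurora kinases drive centrosome maturation and spindle assembly. Condensin compacts the chromosomes, kinetochores join them to spindle microtubules, and the spindle checkpoint, built on MAD and BUB proteins, holds CDC20 and the anaphase-promoting complex inactive until every kinetochore is attached. Most of these genes are transcribed in G2 and M phase through MuvB complexes with B-MYB and FOXM1, so in bulk tissue their summed mRNA is often read as a proliferation signal. In bulk samples, fewer cells of a type and less RNA per cell cannot be told apart.

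Wdr11 itself was measured first as a check on the labels: its mean was 58.8 CPM (counts relative to TMM-scaled library size) in the controls and 65.6 CPM with WDR11OE (log2 fold change 0.16, edgeR adjusted p = 0.091), and this mouse gene's row does not report how much human transgene was present. Total counts ranged from 33417175 to 41397427 in the controls and from 32116095 to 87141305 with WDR11OE, and the lowest count of any mitotic gene in any tumor was 260. Myc, which drives the model, was lower with WDR11OE (914 and 347 mean CPM, log2 fold change -1.40, edgeR adjusted p = 0.00227). Trp53 had 48.4 and 32.7 mean CPM and Cdkn2c 16.2 and 21.6 mean CPM, and because reads outside a deleted part are still counted these rows do not check the deletions. Of the 7 granule lineage markers, Atoh1 was at 0 in all 7 tumors and Barhl1 was near 0, whereas Pax6 had 20.9 and 21.4 mean CPM. The list summed to 46.2 to 53.7 CPM in the controls and 42.6 to 94.3 CPM with WDR11OE. Host neuron markers summed to 449, 149 and 73.6 CPM in control 1 to 3 and to 12.9, 28.9, 212 and 690 CPM in WDR11OE 1 to 4, and 0 of 9 neuron markers passed the test between groups by edgeR, voom or DESeq2 (0 at an unadjusted p under 0.05). The control libraries and the WDR11OE libraries carry identifiers from separate number series, so the condition and any difference between these sets of libraries cannot be told apart.

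Mitotic genes moved in both directions. Of the 55, 23 were higher with WDR11OE, 7 were lower and 25 did not pass the test (edgeR's quasi-likelihood test, Benjamini-Hochberg adjusted p under 0.05 over all genes tested). The 7 that fell were Plk1, Wee1, Cdc25b, Incenp, Ncapd2, Espl1 and Ube2c. The 23 that rose were Cdk1, Ccnb1, Cdc25c, Bub1, Mad2l1, Ttk, Cenpf, Cenpi, Cenpk, Ndc80, Nuf2, Spc25, Kif4, Kif11, Kif18a, Nusap1, Prc1, Ect2, Top2a, Smc2, Smc4, Ncapg and Sgol1. Among all genes tested, 18.1% were higher and 15.8% were lower. The share of mitotic genes that rose was thus above that of all genes, and the share that fell was below it. Only Cenpk met the 2-fold threshold, which 5.55% of all genes met, and fold changes ran from 0.605 (Plk1) to 2.07 (Cenpk). The median log2 fold change was 0.23 over the mitotic genes and 0.08 over all genes tested. The 4 WDR11OE tumors all lay above the 3 controls for 22 of the genes and all below for 8, against 23.6% and 19.1% of all genes, and 25 overlapped.

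The count of higher genes depended on which tumors were included: it was 11 without WDR11OE 1 and 12 without WDR11OE 2. The share of all genes called higher fell too, to 9.11% and 9.65%. The count of lower genes was 4 without WDR11OE 1 and 4 without control 3, where 11.8% and 11.7% of all genes were lower. Fold changes also followed the GC content of the exons, as described further on. With that trend removed from each tumor, 9.12% of all genes were called higher and 13.3% lower. Among the 55 genes both shares were smaller: 4 were higher (Cdk1, Mad2l1, Cenpk and Ndc80) and 2 were lower (Wee1 and Incenp). These 6 genes kept their call under every alternative that was run.

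**Figure D1:**
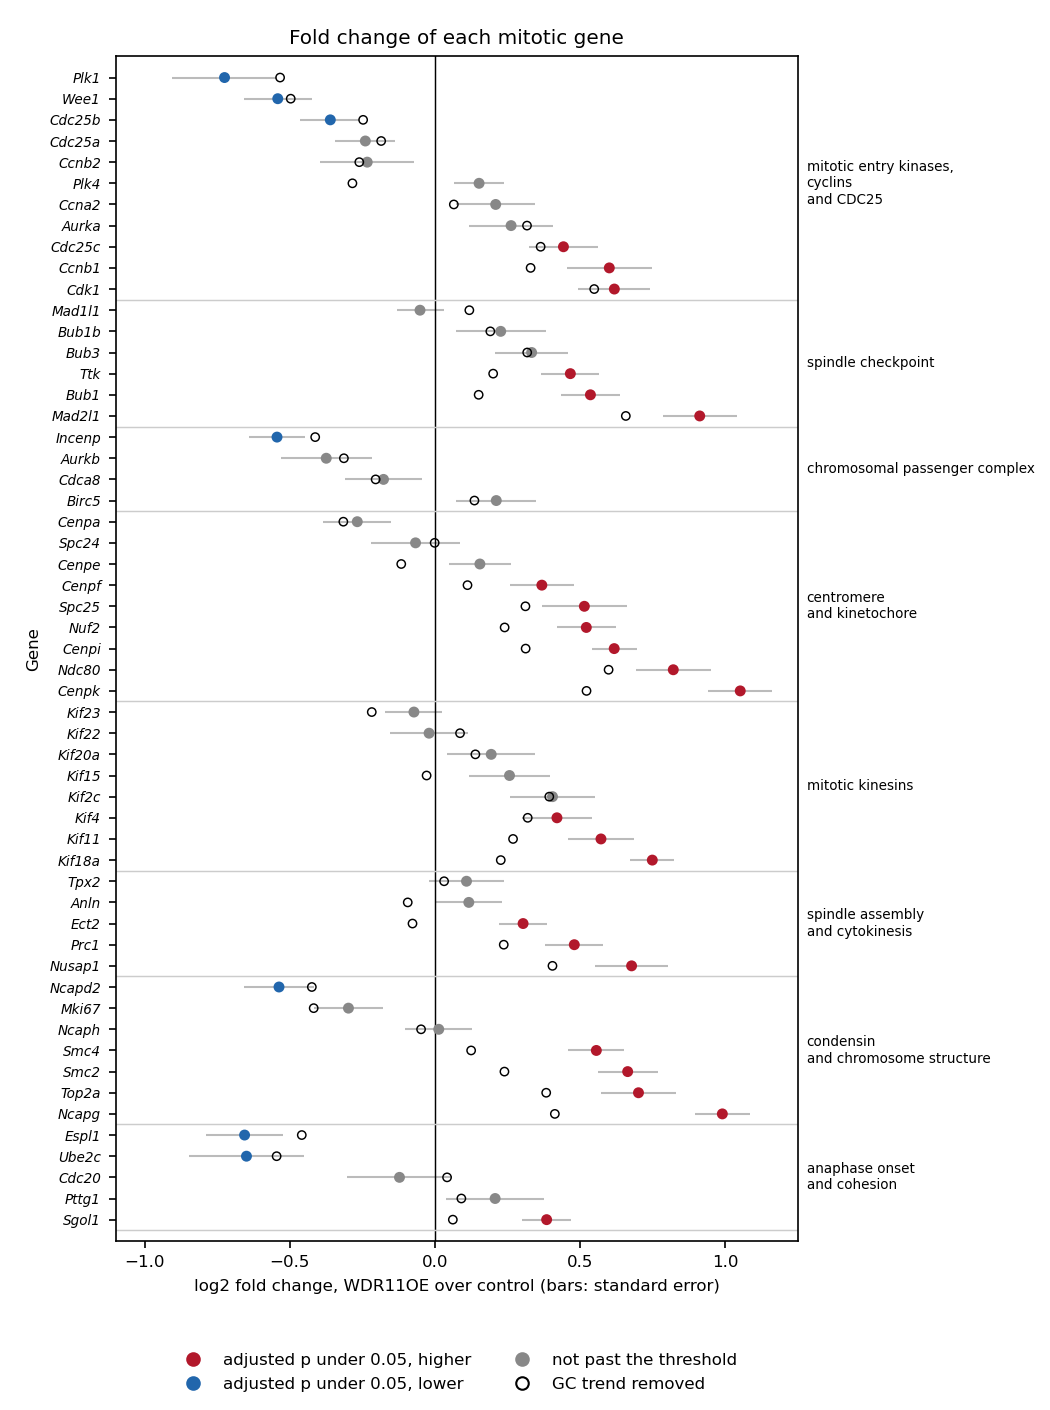
Log2 fold change of WDR11OE over control (x axis, filled points, bars are the standard error) for the 55 genes ordered by role and, as open circles, with the GC trend removed. Kinetochore, condensin and kinesin genes lie mostly to the right, Plk1, Wee1, Incenp, Ncapd2, Espl1 and Ube2c to the left, and most open circles sit closer to 0 than the filled points.

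Cell cycle genes of this kind often carry a cell cycle homology region (CHR), the letters TTTGAA or the closely related variant written TTTAAA, together with CCAAT boxes bound by NF-Y, and the promoters were therefore read for both. RefSeq windows (GRCm38.p6, 250 bases before to 50 bases after the start) were matched for 45 of the genes by symbol or Ensembl ID, giving 51 windows of 32851. A CHR in either form and on either strand was present in 70.6% of these windows and in 27.6% of all windows, and CCAAT, which shares no bases with it, in 72.5% and 37.4%. The E2F-like letters GGCGGGAA were in 0 of the 51 windows and in 2.19% of all. Both motif classes were found in genes that moved in either direction: the CHR was in 15 of 24 windows of genes that rose (62.5%), 4 of 5 of genes that fell (80.0%) and 17 of 22 of genes that did not pass the test (77.3%). A match describes the letters only, and a gene with several starts contributes more than 1 window. Not matched were Aurkb, Ccna2, Cdc25c, Incenp, Kif20a, Sgol1, Smc4, Spc24, Tpx2 and Wee1. The 140 bases before the start are shown for 3 genes that rose (Cdk1, Ncapg, Top2a), 3 that fell (Plk1, Ube2c, Espl1) and 1 that did not pass the test (Cdc20), since the same letters sit before genes that moved in opposite directions; capitals mark the CHR letters and the CCAAT box, or their reverse complement where the motif lies on the other strand, and each sequence reads 5′ to 3′ toward the start.
Cdk1 (chr10:69352913-69353052, minus strand): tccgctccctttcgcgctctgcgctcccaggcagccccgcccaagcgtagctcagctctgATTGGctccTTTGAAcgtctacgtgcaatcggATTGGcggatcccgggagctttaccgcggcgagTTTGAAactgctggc
Ncapg (chr5:45669785-45669924, plus strand): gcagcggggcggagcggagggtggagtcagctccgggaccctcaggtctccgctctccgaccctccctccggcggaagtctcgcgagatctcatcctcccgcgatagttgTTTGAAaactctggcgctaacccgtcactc
Top2a (chr11:99024190-99024329, minus strand): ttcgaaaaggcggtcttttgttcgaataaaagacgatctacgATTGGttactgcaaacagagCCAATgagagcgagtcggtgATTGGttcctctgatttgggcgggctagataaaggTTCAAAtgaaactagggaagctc
Plk1 (chr7:122159295-122159434, plus strand): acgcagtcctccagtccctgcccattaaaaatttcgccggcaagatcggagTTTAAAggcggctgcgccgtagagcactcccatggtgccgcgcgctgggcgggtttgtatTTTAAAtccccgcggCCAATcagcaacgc
Ube2c (chr2:164769789-164769928, plus strand): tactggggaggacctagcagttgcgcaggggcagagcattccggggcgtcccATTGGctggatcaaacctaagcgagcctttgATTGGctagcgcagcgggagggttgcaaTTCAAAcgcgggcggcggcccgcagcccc
Espl1 (chr15:102296153-102296292, plus strand): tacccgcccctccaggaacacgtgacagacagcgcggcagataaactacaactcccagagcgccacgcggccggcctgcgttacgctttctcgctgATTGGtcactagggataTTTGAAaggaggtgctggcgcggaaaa
Cdc20 (chr4:118437344-118437483, minus strand): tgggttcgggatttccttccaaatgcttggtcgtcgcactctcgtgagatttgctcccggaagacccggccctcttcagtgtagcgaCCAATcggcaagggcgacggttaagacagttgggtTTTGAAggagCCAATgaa

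The kinases, cyclins and phosphatases of mitotic entry split, with 3 of 11 lower, 3 higher and a median log2 fold change of 0.15. Counts by role, here and below, stand beside 18.1% higher and 15.8% lower over all genes tested. With the GC trend removed these shares were 9.12% and 13.3%, and no role was tested against them. Cdk1 (chr10:68799383-68815686, minus strand, NCBIM37), the kinase that starts mitosis, measured 81.7, 89.0 and 116 CPM in control 1 to 3 and 151, 153, 145 and 137 CPM in WDR11OE 1 to 4. Every WDR11OE tumor was above every control, and Cdk1 rose 1.53-fold (log2 fold change 0.62 ± 0.12 (SE), edgeR adjusted p = 0.00841). Ccnb1, its cyclin B1 partner, measured 99.1, 102 and 145 CPM in the controls and 186, 185, 170.4 and 158 CPM with WDR11OE. The groups again did not overlap, with control 3 nearest to the WDR11OE tumors (log2 fold change 0.60 ± 0.15 (SE), edgeR adjusted p = 0.0177), and the call was lost without control 1, control 2, WDR11OE 1 or WDR11OE 2 (adjusted p from 0.0576 to 0.0783) and without both control 1 and WDR11OE 4 (adjusted p = 0.0568). Plk1 (chr7:129302951-129313389, plus strand), the Polo-like kinase that activates CDC25 and centrosomes, measured 44.7, 52.3 and 71.6 CPM in the controls and 33.0, 37.4, 38.3 and 27.4 CPM with WDR11OE. Control 3 was highest and WDR11OE 4 lowest, and Plk1 fell to 0.605 of its control level (log2 fold change -0.72 ± 0.18 (SE), edgeR adjusted p = 0.0199), a call lost without control 3 (adjusted p = 0.0542) and without WDR11OE 1 (adjusted p = 0.0632). Wee1 (chr7:117265864-117285626, plus strand), the kinase that holds CDK1 inactive, measured 29.5, 27.9 and 28.6 CPM in the controls and 20.6, 18.9, 22.8 and 16.6 CPM with WDR11OE. All 3 controls lay within a narrow range above every WDR11OE tumor (log2 fold change -0.54 ± 0.12 (SE), edgeR adjusted p = 0.0114).

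Of the other entry genes, Cdc25c, a phosphatase that activates CDK1, rose by a log2 fold change of 0.44 ± 0.12, whereas its relative Cdc25b fell by 0.36 on the log2 scale (edgeR adjusted p = 0.0326). Cdc25a stood at -0.24 and did not pass the test (adjusted p = 0.116), although its groups did not overlap. Cyclin B2, encoded by Ccnb2, stood at -0.23 ± 0.16, with control 3 highest and WDR11OE 4 lowest. Cyclin A2 (Ccna2, 0.21), the centriole duplication kinase Plk4 (0.15) and the centrosomal Aurora kinase Aurka (0.26) did not pass the test. Cdk1 and Wee1 alone of this group kept their calls with the GC trend removed, at log2 fold changes of 0.55 (adjusted p = 0.0306) and -0.50 (adjusted p = 0.0408), and the group's median was then -0.19.

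**Figure D2:**
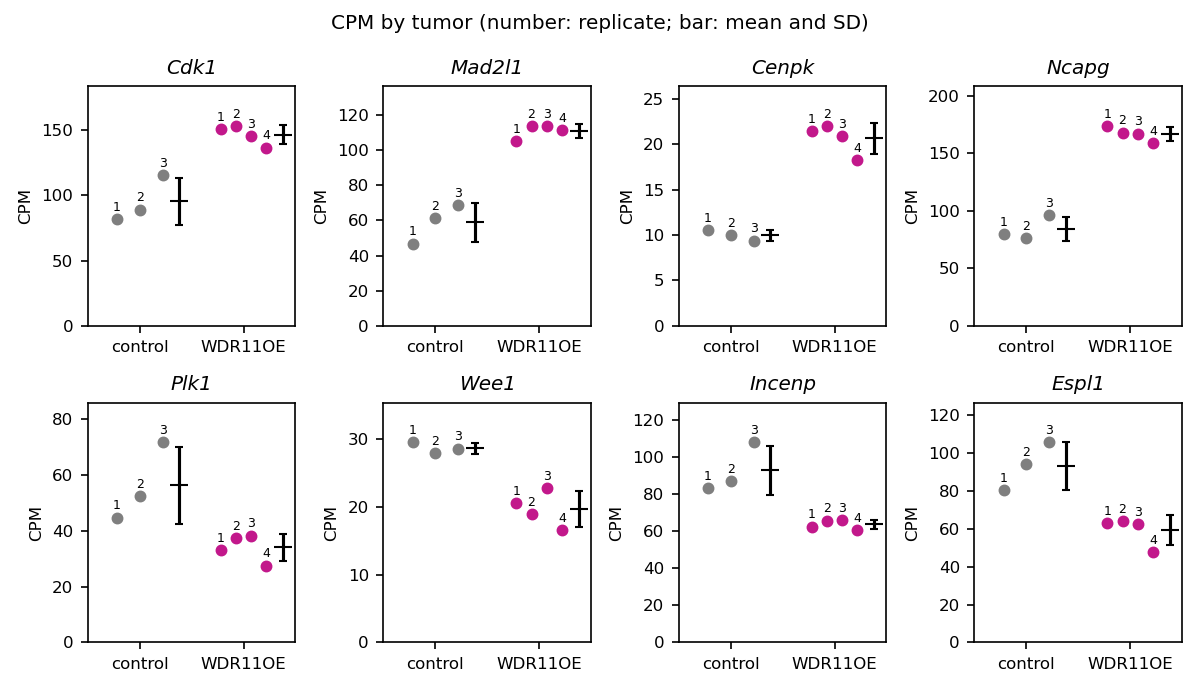
CPM (y axis, starting at 0) of 8 genes in each tumor, with the replicate number above each point and the mean ± SD beside each group. Cdk1, Mad2l1, Cenpk and Ncapg lie higher in all 4 WDR11OE tumors, Plk1, Wee1, Incenp and Espl1 lie lower, and control 3 is the highest control for all except Cenpk and Wee1.

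In the spindle checkpoint, 3 of 6 genes rose and 3 did not pass the test, with a median log2 fold change of 0.40. Mad2l1 (chr6:66485384-66491027, plus strand, NCBIM37) encodes MAD2, which binds and inhibits CDC20, and measured 46.8, 61.3 and 68.7 CPM in control 1 to 3 and 105, 114, 114 and 111 CPM in WDR11OE 1 to 4. The WDR11OE tumors lay close together and well above the controls, 1.88-fold on average (log2 fold change 0.91 ± 0.13 (SE), edgeR adjusted p = 0.00221). Bub1, the checkpoint kinase that also recruits shugoshin to centromeres, measured 61.8, 76.6 and 77.4 CPM in the controls and 109, 109, 105 and 94.0 CPM with WDR11OE. Its groups did not overlap (log2 fold change 0.54 ± 0.10 (SE), edgeR adjusted p = 0.00657), but the call was lost without WDR11OE 1 (adjusted p = 0.0555) or WDR11OE 2 (adjusted p = 0.0526). Bub1b, which encodes the BUBR1 part of the inhibitory complex, measured 106, 122 and 158 CPM in the controls and 169, 161, 142 and 129 CPM with WDR11OE. Control 3 lay inside the WDR11OE range, and the difference did not pass the test (log2 fold change 0.23 ± 0.16 (SE), edgeR adjusted p = 0.311). Mad1l1, whose product MAD1 carries MAD2 to kinetochores, measured 36.8, 34.8 and 39.8 CPM in the controls and 37.6, 36.7, 36.2 and 32.6 CPM with WDR11OE. All 7 tumors lay close together, in contrast to its partner Mad2l1 (log2 fold change -0.05 ± 0.08 (SE), edgeR adjusted p = 0.669). Ttk, the MPS1 kinase that starts checkpoint signalling, rose by 0.47 ± 0.10 on the log2 scale (adjusted p = 0.011), and Bub3, which brings BUB1 and BUBR1 to kinetochores, stood at 0.33 ± 0.13 (adjusted p = 0.0816). With the GC trend removed the Mad2l1 call remained, at 0.66 (adjusted p = 0.0161).

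The chromosomal passenger complex, in which Aurora B kinase corrects faulty attachments, had 1 of 4 genes lower and a median log2 fold change of -0.28. Incenp (chr19:9946787-9974023, minus strand, NCBIM37), the scaffold of the complex, measured 83.3, 87.04 and 108 CPM in control 1 to 3 and 62.4, 65.7, 65.8 and 60.5 CPM in WDR11OE 1 to 4. The WDR11OE tumors spanned a narrow range below all 3 controls, and Incenp fell to 0.686 of its control level (log2 fold change -0.54 ± 0.10 (SE), edgeR adjusted p = 0.00551) and remained lower with the GC trend removed (-0.41, adjusted p = 0.0275). Aurkb, the catalytic subunit, measured 54.9, 61.9 and 79.8 CPM in the controls and 56.1, 55.0, 50.2 and 41.0 CPM with WDR11OE. WDR11OE 1 and WDR11OE 2 fell between the controls, and the difference did not pass the test (log2 fold change -0.37 ± 0.16 (SE), edgeR adjusted p = 0.107). Cdca8, which encodes borealin, measured 39.9, 40.2 and 51.7 CPM in the controls and 40.6, 43.4, 38.6 and 32.7 CPM with WDR11OE. Its groups overlapped (log2 fold change -0.18 ± 0.13 (SE), edgeR adjusted p = 0.348). Birc5, which encodes survivin, measured 38.2, 42.3 and 54.3 CPM in the controls and 57.5, 55.1, 49.5 and 46.0 CPM with WDR11OE. Control 3 lay within the WDR11OE tumors, and the value was positive where those of the other members of the complex were negative (log2 fold change 0.21 ± 0.14 (SE), edgeR adjusted p = 0.286).

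Centromere and kinetochore genes had 6 of 9 members higher, 3 that did not pass the test and a median log2 fold change of 0.51. Cenpk (chr13:105019035-105041728, plus strand, NCBIM37), a subunit of the constitutive centromere network, measured 10.53, 9.99 and 9.37 CPM in control 1 to 3 and 21.5, 22.01, 20.9 and 18.2 CPM in WDR11OE 1 to 4. Both groups were tight and far apart, and control 3 was here the lowest control (log2 fold change 1.05 ± 0.11 (SE), edgeR adjusted p = 0.00108). Ndc80 (chr17:71845440-71876197, minus strand), the microtubule-binding subunit of the complex that carries its name, measured 23.2, 24.0 and 31.6 CPM in the controls and 52.0, 45.6, 44.6 and 43.1 CPM with WDR11OE. It rose 1.77-fold with no overlap (log2 fold change 0.82 ± 0.13 (SE), edgeR adjusted p = 0.00349). Spc24, which anchors the other end of the same complex to the kinetochore, measured 25.1, 28.9 and 36.4 CPM in the controls and 29.5, 32.8, 29.0 and 23.8 CPM with WDR11OE. The WDR11OE tumors lay inside the control range except for WDR11OE 4, just below it (log2 fold change -0.07 ± 0.15 (SE), edgeR adjusted p = 0.778), and the sign turned without control 3 or without WDR11OE 4. Cenpa, the histone variant that marks centromeres, measured 51.6, 60.3 and 70.3 CPM in the controls and 51.4, 52.7, 53.2 and 44.6 CPM with WDR11OE. Control 1 lay among the WDR11OE tumors and the difference did not pass the test (log2 fold change -0.27 ± 0.12 (SE), edgeR adjusted p = 0.121).

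The other 2 NDC80 subunits rose, Nuf2 by 0.52 ± 0.10 and Spc25 by 0.51 ± 0.15 on the log2 scale (edgeR adjusted p = 0.00767 and 0.0324). Cenpi, a further centromere network subunit, rose by 0.62 ± 0.08 (adjusted p = 0.00158). Cenpf, a large protein of the outer kinetochore, rose by 0.37 ± 0.11 (adjusted p = 0.0384), the only called gene whose groups overlapped. Cenpe, the kinetochore kinesin that aligns chromosomes, stood at 0.15 ± 0.11 (adjusted p = 0.307). Cenpk and Ndc80 kept their calls with the GC trend removed, at 0.52 (adjusted p = 0.0497) and 0.60 (adjusted p = 0.0258).

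Of the 8 mitotic kinesins, 3 rose and 5 did not pass the test, with a median log2 fold change of 0.33. Over all genes tested 18.1% rose, and whether the kinesins differed from that share was not tested. Kif18a, which dampens chromosome oscillations at the metaphase plate, measured 36.6, 33.0 and 39.5 CPM in control 1 to 3 and 62.0, 60.6, 62.0 and 59.7 CPM in WDR11OE 1 to 4. The WDR11OE tumors differed little among themselves and did not overlap the controls (log2 fold change 0.75 ± 0.08 (SE), edgeR adjusted p = 0.00105). Kif11, the Eg5 motor that pushes spindle poles apart, measured 172, 168 and 218 CPM in the controls and 279, 296, 277 and 253 CPM with WDR11OE. It rose 1.49-fold (log2 fold change 0.57 ± 0.11 (SE), edgeR adjusted p = 0.00801), a call lost without WDR11OE 1 (adjusted p = 0.0518). Kif22, a chromosome-arm motor, measured 56.1, 55.0 and 80.0 CPM in the controls and 66.4, 62.4, 61.6 and 60.7 CPM with WDR11OE. Control 3 was above every WDR11OE tumor and the other controls below them, and the small difference (log2 fold change -0.02 ± 0.14 (SE), edgeR adjusted p = 0.929) changed sign under voom, upper quartile scaling, GC removal and without control 3. Kif23, the motor of the centralspindlin complex, measured 54.7, 55.9 and 66.4 CPM in the controls and 55.5, 57.1, 61.4 and 50.5 CPM with WDR11OE. Its groups overlapped (log2 fold change -0.07 ± 0.10 (SE), edgeR adjusted p = 0.616). Kif4, the chromokinesin that works with PRC1, rose by 0.42 ± 0.12 on the log2 scale (adjusted p = 0.0339). The microtubule-depolymerising Kif2c (0.40, adjusted p = 0.0706), the spindle motor Kif15 (0.26) and the cytokinesis motor Kif20a (0.19) did not pass it, and with the GC trend removed edgeR called 0 of the 8, 1 of which was higher at an unadjusted p under 0.05.

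Spindle assembly and cytokinesis genes had 3 of 5 members higher and a median log2 fold change of 0.30. Nusap1, a microtubule-bundling protein at chromosomes, measured 69.0, 63.8 and 86.8 CPM in control 1 to 3 and 125, 127, 112 and 104 CPM in WDR11OE 1 to 4. It rose 1.60-fold with no overlap (log2 fold change 0.68 ± 0.13 (SE), edgeR adjusted p = 0.00621). Prc1, which bundles the antiparallel microtubules of the spindle midzone, measured 94.5, 91.6 and 112 CPM in the controls and 151, 144, 135 and 125 CPM with WDR11OE. The groups did not overlap (log2 fold change 0.48 ± 0.10 (SE), edgeR adjusted p = 0.00994), and the call was lost without WDR11OE 1 (adjusted p = 0.0736) or WDR11OE 2 (adjusted p = 0.0720). Tpx2, the activator of Aurora A on the spindle, measured 128, 136 and 176 CPM in the controls and 172, 168, 153 and 139.6 CPM with WDR11OE. Control 3 was the highest of all 7 tumors (log2 fold change 0.11 ± 0.13 (SE), edgeR adjusted p = 0.568). Anln, the anillin scaffold of the contractile ring, measured 79.5, 97.2 and 106 CPM in the controls and 105, 108, 105 and 89.8 CPM with WDR11OE. WDR11OE 4 lay apart from the other WDR11OE tumors and within the controls (log2 fold change 0.12 ± 0.11 (SE), edgeR adjusted p = 0.476). Ect2, the exchange factor that activates RhoA at the cell equator, rose by 0.30 ± 0.08 on the log2 scale (adjusted p = 0.0262), but its value was -0.08 with the GC trend removed, where edgeR called 0 of these 5 genes and 1 was higher at an unadjusted p under 0.05.

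Condensin and chromosome structure genes had the highest median of the 8 roles, 0.56, with 4 of 7 higher and 1 lower. Ncapg (chr5:46061161-46091783, plus strand, NCBIM37), a HEAT-repeat subunit of condensin I, measured 79.9, 76.03 and 96.1 CPM in control 1 to 3 and 174, 168, 167 and 159 CPM in WDR11OE 1 to 4. The WDR11OE tumors were all far above the controls, 1.99-fold on average (log2 fold change 0.99 ± 0.09 (SE), edgeR adjusted p = 0.00104). Ncapd2 (chr6:125118027-125141613, minus strand), the other HEAT-repeat subunit of condensin I, measured 271, 257 and 342 CPM in the controls and 204, 208, 213 and 174 CPM with WDR11OE. It moved the other way, to 0.689 of its control level, with no overlap (log2 fold change -0.54 ± 0.12 (SE), edgeR adjusted p = 0.0137). Top2a, topoisomerase II alpha, which untangles sister DNA, measured 563, 571 and 706 CPM in the controls and 1059, 1078, 979.8 and 871 CPM with WDR11OE. It rose 1.63-fold (log2 fold change 0.70 ± 0.13 (SE), edgeR adjusted p = 0.00593) and had the highest level per exon length of the 55 genes in the WDR11OE tumors, at means of 67.6 RPKM (CPM divided by the exon length in kilobases) in the controls and 109.9 RPKM with WDR11OE. Mki67, which encodes the proliferation antigen Ki-67 that coats mitotic chromosomes, measured 838, 693 and 923 CPM in the controls and 655, 695, 699 and 612 CPM with WDR11OE. WDR11OE 2 and WDR11OE 3 lay just above control 2, so that the groups overlapped, and the difference did not pass the test (log2 fold change -0.30 ± 0.12 (SE), edgeR adjusted p = 0.0948). The condensin ATPases Smc2 and Smc4 rose by 0.66 ± 0.10 and 0.56 ± 0.10 on the log2 scale (adjusted p = 0.00325 and 0.00472), and the linker subunit Ncaph stood at 0.01 ± 0.11. With the GC trend removed edgeR called 0 of these 7 genes, 1 higher and 2 lower having an unadjusted p under 0.05, the values for Ncapg and Ncapd2 being 0.41 and -0.42 (adjusted p = 0.0949 and 0.0608).

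Among genes of anaphase onset and cohesion 2 of 5 fell and 1 rose, with a median log2 fold change of -0.12. Espl1 (chr15:102126724-102154787, plus strand, NCBIM37), the separase that cleaves cohesin, measured 80.3, 94.1 and 106 CPM in control 1 to 3 and 62.8, 64.2, 62.3 and 47.7 CPM in WDR11OE 1 to 4. WDR11OE 4 was lowest, apart from the other 3, and all 4 lay below the controls (log2 fold change -0.66 ± 0.13 (SE), edgeR adjusted p = 0.0089). Ube2c, the ubiquitin-conjugating enzyme of the anaphase-promoting complex, measured 50.5, 67.3 and 80.9 CPM in the controls and 48.6, 49.6, 37.667 and 33.0 CPM with WDR11OE. It had the widest range among WDR11OE tumors of the 55 genes, 0.59 on the log2 scale, and its call (log2 fold change -0.65 ± 0.20 (SE), edgeR adjusted p = 0.0413) held without control 1 but was lost when any other single tumor was left out (adjusted p from 0.0550 to 0.141). Sgol1, the shugoshin that protects centromeric cohesin, measured 39.8, 40.4 and 47.9 CPM in the controls and 59.4, 54.5, 55.3 and 53.8 CPM with WDR11OE. Its groups did not overlap (log2 fold change 0.38 ± 0.08 (SE), edgeR adjusted p = 0.0124), and the call was lost without control 2, WDR11OE 1 or WDR11OE 2 (adjusted p from 0.0523 to 0.0821). Pttg1, the securin that restrains separase, measured 7.22, 7.77 and 9.93 CPM in the controls and 11.01, 9.98, 8.99 and 8.38 CPM with WDR11OE. Control 3 lay within the WDR11OE tumors (log2 fold change 0.21 ± 0.17 (SE), edgeR adjusted p = 0.395). Cdc20, the activator of the anaphase-promoting complex that MAD2 restrains, stood at -0.12 ± 0.18 (adjusted p = 0.649). With the GC trend removed edgeR called 0 of these 5 genes, 2 of them lower at an unadjusted p under 0.05, and the Espl1 call was also lost with the length trend removed (adjusted p = 0.0685).

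The exact permutation test was two-sided over the 35 splits of the 7 tumors. By this exact permutation test p = 0.0286 was found for each of the 19 called genes whose values are given by tumor. That is the smallest p that 3 against 4 tumors allow. Genes given by tumor were chosen mostly by their fold changes in these same data, and the groups of these 19 did not overlap. Cenpf, the called gene with overlapping groups, is not among them. The uniform result therefore follows from the choice of genes and adds no separate evidence to the edgeR calls.

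**Figure D3:**
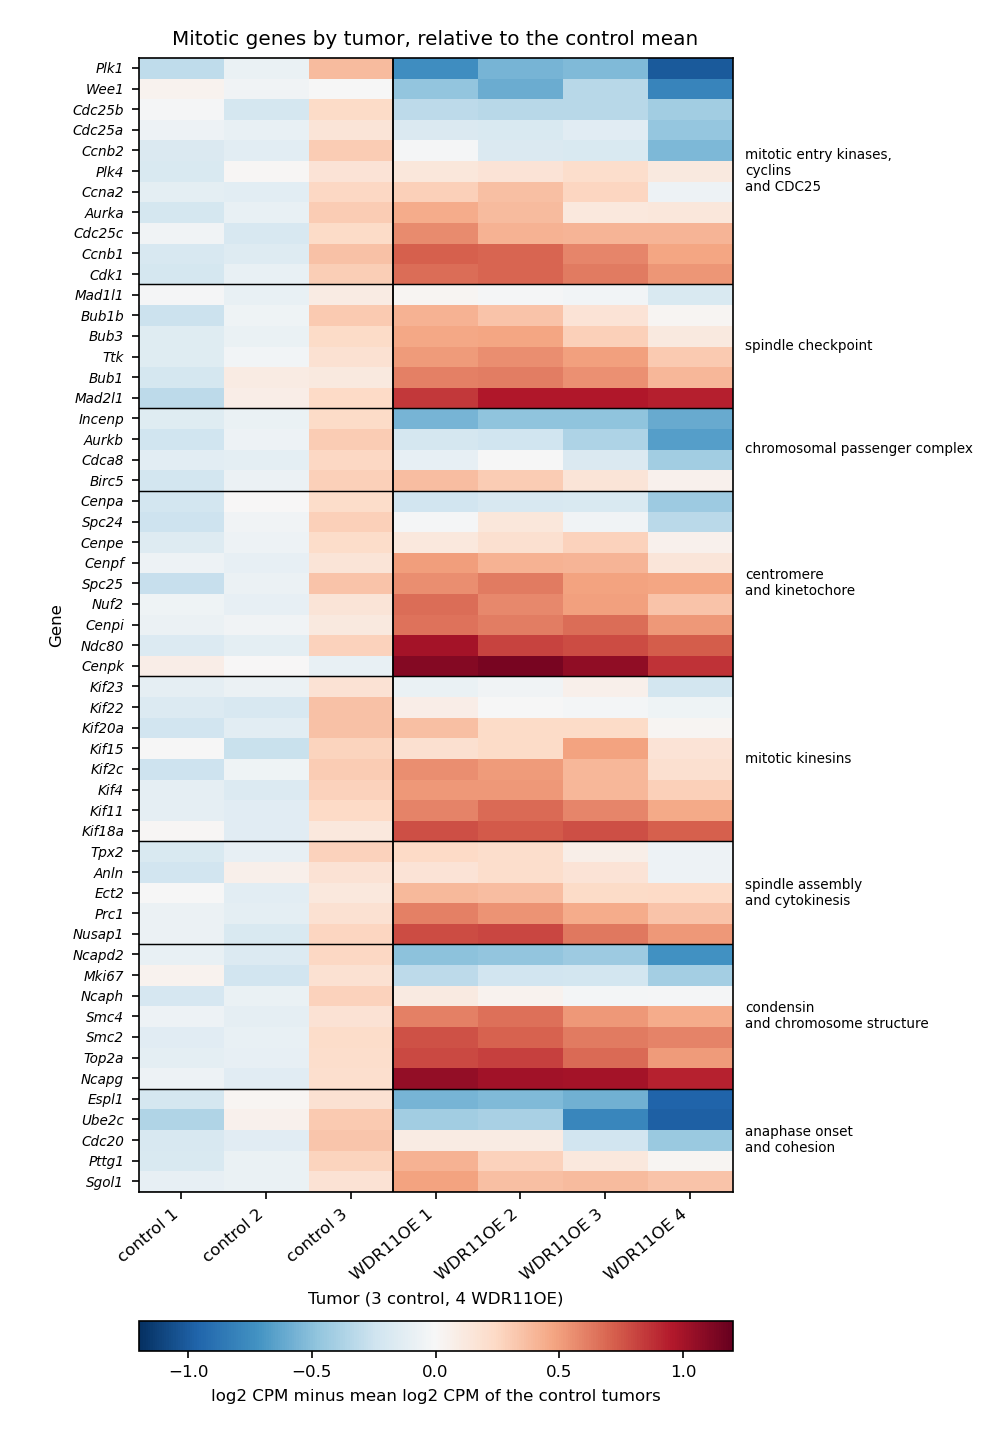
Log2 CPM of the 55 genes (rows, by role) in the 7 tumors (columns), as the difference from the mean of the 3 controls, with red above and blue below. Control 3 is redder than the other controls in nearly every row, WDR11OE 4 is the palest or bluest WDR11OE tumor, and red and blue rows sit side by side within a role.

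Levels of the mitotic genes also differed between tumors of the same group. Control 3 was the highest control for 53 of the 55 genes, compared with 38.2% of all genes tested, and WDR11OE 4 was the lowest WDR11OE tumor for 50 of 55, compared with 31.7%. Summed over the 55 genes, the level was 5303, 5284 and 6685 CPM in control 1 to 3 and 7079, 7123, 6797 and 6076 CPM in WDR11OE 1 to 4. Control 3 was thus above WDR11OE 4, and the groups overlapped in the sum. The 2 tumors with the highest summed neuron markers of their groups were control 1 and WDR11OE 4, at 449 and 690 CPM, and control 3 had the lowest of the controls. Control 2, at 149 CPM of neuron markers, had a mitotic sum no higher than that of control 1 (5284 and 5303 CPM). A relation between the neuron and mitotic sums was not tested. Without control 1 and WDR11OE 4, a choice made after seeing the data, 16 mitotic genes were higher and 8 were lower. Of all genes tested, 14% were then higher and 17.8% lower, and 22 of the 30 mitotic calls remained. Astrocyte and oligodendrocyte markers summed to 336 to 614 CPM in the controls and 218 to 814 CPM with WDR11OE, and microglia markers to 106 to 161 and 82.4 to 169 CPM, and edgeR, voom and DESeq2 each called 0 genes of both lists, with 0 at an unadjusted p under 0.05. Endothelial markers summed to 112 to 142 CPM in the controls and 86.4 to 95.8 CPM with WDR11OE. Of these 6 markers 2 were lower, against 15.8% of all genes tested, and their part in the result was not tested.

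Skeletal muscle markers were near 0 in the controls, at 1.04 to 1.92 CPM in sum, and reached 35.7 to 112 CPM with WDR11OE, with 6 of 6 higher. This bears on Ube2c, because 22.8% of its exon bases lie on the opposite strand of the troponin gene Tnnc2, and the sources used here do not state whether counting used strand. Reads from overlapping genes then cannot be told apart. Ube2c was lower with WDR11OE (log2 fold change -0.65), the opposite direction to the muscle markers, and a share of Tnnc2 reads in its count was not tested. In all, 12 of the 55 genes share exon bases with another gene, and 5 share at least 10%, namely Kif20a with Cdc23 (32.3%), Ube2c, Kif4 with Pdzd11 (15.1%), Ccna2 with Exosc9 (14.6%) and Ncapg with Lcorl (13.3%). Ccnb2, Kif22 and Kif4 also have pseudogene rows in the count table, so their counts are uncertain to the extent that reads are shared.

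GC content of the exons sorted the genes by direction. Its median was 42.7% for the genes that rose, 53.8% for those that fell and 48.7% for those that did not pass the test, within a range of 36.1% to 56.1%. Across the 55 genes, which are not independent replicates, Spearman's rho between log2 fold change and GC content was -0.78. It was -0.34 across the 17125 tested genes with a GC value, so the trend was not limited to mitotic genes, and all points come from the same 7 libraries. Of the 22 mitotic genes in the lowest quintile of GC content 19 rose, whereas 39.2% of all genes in that quintile rose. In the next to highest quintile 4 of 11 fell, against 21.0% of all genes there, and in the highest quintile both of the mitotic genes fell, Plk1 and Espl1, against 27.0%. The median log2 fold change of all genes went from 0.41 in the lowest quintile to -0.21 in the highest. With the trend removed the rho of the mitotic genes was -0.48, their median log2 fold change was 0.11 against 0.04 for all genes, and 24 of the 30 calls were lost. Because the library sets coincide with the condition, the condition and a difference between library sets cannot be told apart as the origin of this trend.

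**Figure D4:**
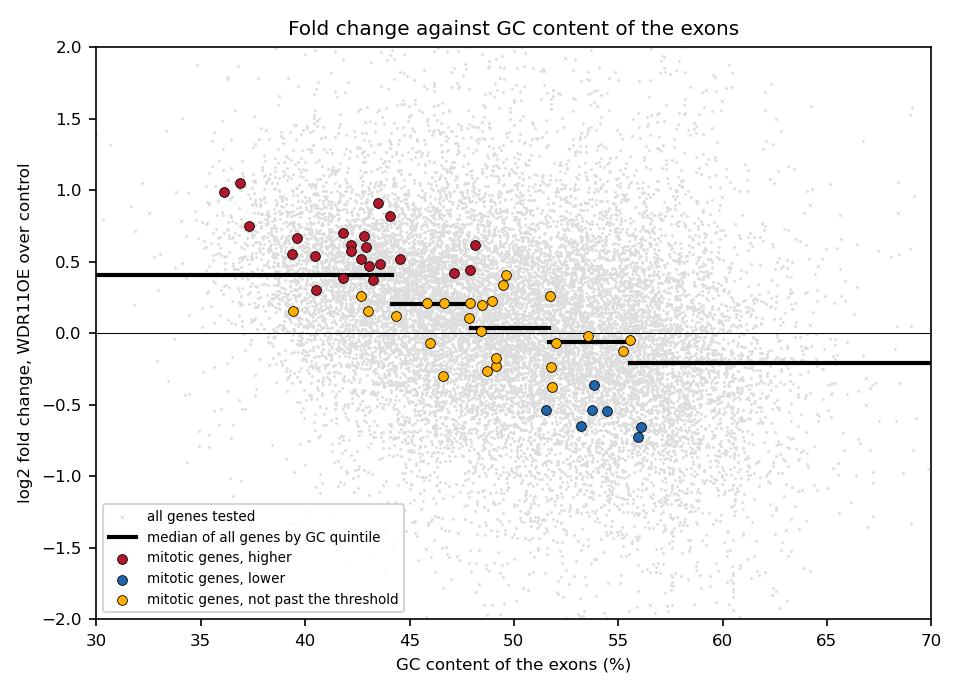
Log2 fold change (y axis) against the GC content of the exons in percent (x axis) for all genes tested in grey, for the median of all genes in each quintile of GC content as black bars, and for the 55 mitotic genes in color; genes beyond the axis limits are not drawn. Genes that rose (red) sit at low GC content with a median of 42.7%, genes that fell (blue) at high GC content with a median of 53.8%.

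Some genes whose products work in 1 complex differed in how they moved, which the ratio of their CPM within each tumor shows without reference to scaling. Ccnb1 with Ccnb2 and Cdc25c with Wee1 were added as pairs with related roles, and are not partners in 1 complex. These pairs were chosen after their values were seen and are given with no test, and a ratio of CPM is not corrected for length, so it is compared only between tumors. Ncapg over Ncapd2 was 0.295, 0.296 and 0.281 in the controls and 0.850, 0.808, 0.784 and 0.909 with WDR11OE. Both are subunits of condensin I, and the ratio hardly varied within a group. The 2 SMC subunits of the same complex, Smc2 over Smc4, kept a ratio of 0.648, 0.697 and 0.708 in the controls and 0.763, 0.706, 0.733 and 0.756 with WDR11OE. In the NDC80 complex, Ndc80 over Spc24 was 0.922, 0.828 and 0.866 in the controls and 1.76, 1.39, 1.53 and 1.81 with WDR11OE. Nuf2 over Spc25 was 2.45, 2.05 and 1.84 in the controls and 2.27, 2.03, 2.10 and 1.92 with WDR11OE, so the groups overlapped for this pair of the same complex.

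For the passenger complex, Birc5 over Incenp was 0.459, 0.486 and 0.504 in the controls and 0.922, 0.838, 0.753 and 0.761 with WDR11OE. The cyclin B1 to cyclin B2 ratio, Ccnb1 over Ccnb2, was 3.02, 3.02 and 3.14 in the controls and 5.07, 5.62, 5.21 and 6.17 with WDR11OE. Cdc25c over Wee1, the activating phosphatase over the inhibitory kinase of CDK1, was 0.626, 0.596 and 0.779 in the controls and 1.37, 1.35, 1.10 and 1.52 with WDR11OE. In these 5 pairs with separated groups the 2 genes differ in GC content, most of all Ncapg (36.1%) and Ncapd2 (53.7%). The pairs with overlapping groups were closer, Smc2 and Smc4 at 39.6% and 39.4%, Nuf2 and Spc25 at 42.7% and 44.5%. Whether GC content accounts for the separation was not tested. For Ncapg and Ncapd2 the difference between log2 fold changes went from 1.53 to 0.84 when the GC trend was removed. It went from 0.887 to 0.599 for Ndc80 and Spc24, from 0.755 to 0.548 for Birc5 and Incenp, and from 0.834 to 0.590 for Ccnb1 and Ccnb2. For Cdc25c and Wee1, with 47.9% and 51.5% GC, it went from 0.98 to 0.86.

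**Figure D5:**
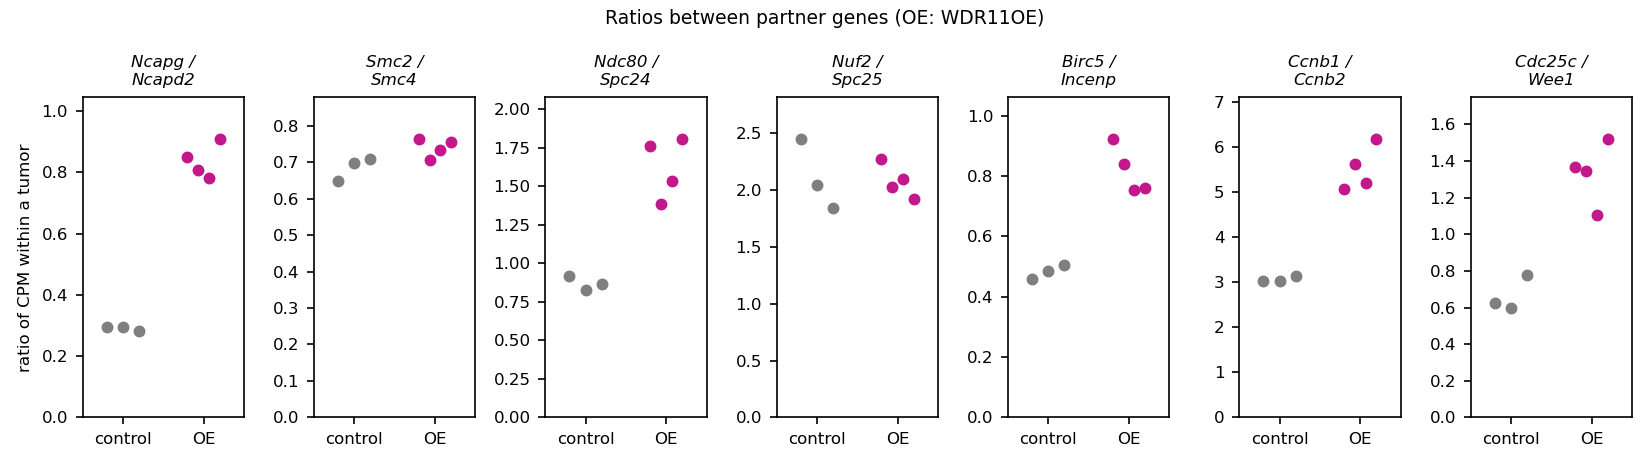
Ratio of CPM in each tumor for 7 pairs of genes from a shared complex or with related roles (y axes start at 0, with 3 controls in grey and 4 WDR11OE tumors in magenta). Ncapg over Ncapd2 stands at 0.281 to 0.296 in the controls and 0.784 to 0.909 with WDR11OE, while Smc2 over Smc4 and Nuf2 over Spc25 cover overlapping ranges.

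The wider mitotic machinery was read through 7 lists that hold none of the 55 genes, and their counts stand beside 18.1% higher and 15.8% lower over all genes tested, or 9.12% and 13.3% with the GC trend removed. Of 28 other kinetochore and centromere genes tested, 15 were higher and 2 lower, with a median log2 fold change of 0.38, from the MIS12 complex gene Pmf1 (-0.60, edgeR adjusted p = 0.0149) to Cenph (0.97, edgeR adjusted p = 0.00211), a partner of CENP-K. With the GC trend removed 5 were higher and 1 lower. Of 14 cohesin genes 4 were higher and 10 did not pass the test, from Cdca5, which encodes sororin (-0.30, adjusted p = 0.158), to the cohesin acetyltransferase Esco2 (0.88, adjusted p = 0.000859); with the GC trend removed 1 was higher and 2 were lower. Of 15 genes of the anaphase-promoting complex and its partners 4 were higher and 2 lower, from the activator Fzr1 (-0.81, adjusted p = 0.00162) to the subunit Anapc10 (0.76, adjusted p = 0.00577); with the GC trend removed 1 was higher and 2 were lower. Of 37 other spindle, centrosome and cytokinesis genes 12 were higher and 5 lower, from gamma-tubulin, Tubg1 (-0.76, adjusted p = 0.00506), to the augmin subunit Haus3 (0.94, adjusted p = 0.000857). With the GC trend removed 3 of these were higher and 5 lower. Among 14 other mitotic kinases and regulators 2 were higher and 1 lower, from Pkmyt1 (-0.37, adjusted p = 0.0708), a relative of WEE1, to the greatwall kinase Mastl (0.64, adjusted p = 0.00743), and 1 was higher and 1 lower with the GC trend removed.

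The regulators that drive transcription of mitotic genes were not uniformly changed. Of 7 FOXM1, B-MYB and MuvB genes 3 were lower and 2 higher, with a median log2 fold change of 0.09. With the GC trend removed 1 was lower, 0 were higher and the median was -0.23. At an unadjusted p under 0.05 by edgeR, 4 were then lower and 0 higher. Foxm1, the forkhead factor active in G2, fell from 64.3 to 33.1 mean CPM (log2 fold change -0.96, edgeR adjusted p = 0.00112), and was the gene that remained lower with the GC trend removed (-0.84, adjusted p = 0.00389). Lin52, a MuvB core subunit, was the highest at 0.56 (adjusted p = 0.0342). Mybl2, which encodes B-MYB and is named after its values were seen, fell by 0.53 on the log2 scale (adjusted p = 0.0219), a call lost with the GC trend removed (-0.36, adjusted p = 0.113). For comparison, of 32 DNA replication licensing and fork genes, which act in G1 and S phase, 19 were higher and 1 lower with a median of 0.38, from Cdt1, the licensing factor (-0.87, adjusted p = 0.00467), to the origin recognition subunit Orc5 (1.06, adjusted p = 0.000857). With the GC trend removed 6 of them were higher and 2 lower. The mitotic genes had 23 of 55 higher and 7 lower, and the difference between these lists was not tested.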

How the data were processed

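RNA from chunks of 7 tumors was sequenced on TruSeq libraries, and the authors mapped reads to mm9 (NCBIM37) and deposited raw read counts per gene made with HTSeq on GENCODE. The submitters' processing notes also list CASAVA 1.7, BWA and STAR. Whether counting used strand was not given in the sources used here, and the sources differ on whether the kit marks strand. Host and tumor reads are counted together.

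From the deposited counts, edgeR 4.0.16 (R 4.3.3) was run with its default filter (17389 genes), TMM scaling and the quasi-likelihood test on group, two-sided, with Benjamini-Hochberg adjustment over all genes and a threshold of 0.05. The 2-fold calls also needed an average log2 CPM above 0. Standard errors were the log2 fold change divided by the square root of F. The common biological coefficient of variation was 34.6%. CPM used TMM library sizes, log2 CPM a prior count of 2, and RPKM and GC content the union of exons. GC and length trends were fitted by loess in each tumor and put in the offset. Alternatives were limma 3.58.1 voom (the study's method), DESeq2 1.42.0, other scalings and filters, leaving out each tumor, and summing WDR11OE 1 and 2, whose titles share a number. Leaving out control 1 and WDR11OE 4 was chosen after seeing the data. Scripts were tested on simulated data.

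The 55 genes, the roles and the other lists were chosen with earlier results of these data known. Values by tumor were given for the 2 lowest and 2 highest fold changes of each role and for the widest WDR11OE range, 32 genes in all; of each further list the lowest and highest gene were named. Replicate numbers follow the order of the samples, and counts of every pair of tumors in a group differed by more than sampling noise (chi-square per degree of freedom 22.6 or more). Protein sequences were not analysed here.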

Additional observations from a re-analysis of the deposited data

Results flagged for a closer look

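Among the 32 genes given by tumor, the 4 WDR11OE tumors were checked for a single value far from the others, by the gap to its nearest neighbour as a share of the range; chance flags about 1 in 20 groups, and the 3 controls are too few for this check. Espl1 in WDR11OE 4 was at 47.7 CPM, and the other WDR11OE tumors were between 62.3 and 64.2 CPM. Anln in WDR11OE 4 was at 89.8 CPM, and the others were between 104.9 and 108.3 CPM. Both values come from the tumor that was lowest of its group in 50 of the 55 mitotic genes.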

How the results depend on the processing

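The count of lower mitotic genes (7) was 2 with the GC trend removed and 4 with WDR11OE 1 and 2 summed. It lay between 4 and 7 when 1 tumor was left out. The share of all genes called lower (15.8%) was 13.3%, 12.2% and between 11.7% and 16.9% in these fits. The count of higher genes (23) was 4 with the GC trend removed and 12 with WDR11OE 1 and 2 summed. It lay between 11 and 27 when 1 tumor was left out. The share of all genes called higher (18.1%) was 9.12%, 9.51% and between 9.11% and 17.6% in these fits. The single 2-fold gene became 2 with upper quartile scaling and 0 with no filter, with the GC trend removed and with the summed tumors, and 0 to 3 when 1 tumor was left out. The median log2 fold change lay between 0.14 and 0.39 when 1 tumor was left out, and 0.39 was without control 3. With the GC trend removed 6 of the 30 calls remained, with the summed tumors 16, without WDR11OE 1 15 and without WDR11OE 2 17. Of all 55 genes, 9 changed sign with the GC trend removed, and Ect2 (0.30 to -0.08) was the called gene among them; the others were Plk4, Cenpe, Kif15, Ncaph, Cdc20, Mad1l1, Kif22 and Anln. Among the 32 genes given by tumor, directions turned for Mad1l1 (GC trend removed, 0.12), Anln (GC trend removed, -0.0938), Spc24 (-0.19 to 0.0888 when 1 tumor was left out, above 0 without control 3 and without WDR11OE 4), Kif23 (-0.13 to 0.0193, above 0 without control 3) and Kif22 (-0.12 to 0.17, above 0 without control 3; 0.0043 with voom, 0.0173 with upper quartile scaling and 0.0863 with the GC trend removed), and each of these missed the threshold in every fit where it turned. Over the 32 genes given by tumor and all alternatives, 519 comparisons kept direction and side of the threshold, 43 lost the call, 5 gained one and 9 turned. Of the called members higher made up 76.7%, and 66.7% with the GC trend removed, 87.1% without control 3 and 66.7% without control 1 and WDR11OE 4. The cause was not tested. No paired analysis was run because the labels state no pairing between control and WDR11OE tumors. Each of these genes had 260 or more counts in each tumor. Total counts were highest in WDR11OE 2 and WDR11OE 4 (85371523 and 87141305), and an effect of depth was not tested. The use of 7 tumors of 1 line limits what can be said beyond that line.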
